A study of Homo sapiens with 28 samples.

Results

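Resistance to sorafenib and resistance to sunitinib were set against each other in xenograft tumours of 786-O, a human clear cell renal carcinoma line without working VHL. The comparison used 19 of the 28 tumours of the series, all those of 786-O. They were 5 sorafenib-resistant tumours, 5 untreated tumours of the sorafenib arm, 4 sunitinib-resistant tumours and 5 untreated tumours of the sunitinib arm. The other 9 tumours were of A498, a second renal carcinoma line, with 5 sorafenib-resistant and 4 untreated tumours. All tumours came from 10000000 cells injected under the skin of the flank of female athymic nude/beige mice aged 6 to 8 weeks. Sorafenib at 80 mg/kg or sunitinib at 53.6 mg/kg was given by gavage on 6 of 7 days a week once a tumour measured 12 mm, so the drugs were compared at different doses. Tumours were taken either at 12 mm, before any drug, or at the permitted limit of 20 mm. The labels give neither the size of the untreated tumours nor which tumours shared a mouse. The p-values below therefore cover the variation among the tumours sampled, some of which may have shared a host. Frozen tissue was hybridised to human arrays with 54675 probe sets. The quantity described here is the resistant minus untreated difference of log2(signal + 16) in the sorafenib arm, less the same difference in the sunitinib arm. A positive value therefore means higher under sorafenib relative to sunitinib. In 786-O all tumours of the sorafenib arm carry the title prefix 33 and all tumours of the sunitinib arm the prefix 35, so drug, arm and whatever the prefix stands for cannot be told apart.

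Sorafenib and sunitinib both block the VEGF and PDGF receptors through which clear cell renal tumours draw their blood supply, and sorafenib also binds RAF kinases. RAF passes signals from growth factor receptors to MEK and ERK. Active ERK switches on genes that restrain it again, among them the DUSP phosphatases and the Sprouty and SPRED proteins, and transcription factors of the ETV group. Levels of these genes are commonly read as a measure of ERK pathway output.

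Every array had been scaled to a 2% trimmed mean near 500.1, and its median signal lay between 79.7 and 96.4 in 786-O tumours. EPAS1, the HIF subunit that drives VHL-deficient renal tumours, was at 3631 or more in all 19 tumours, and AQP1, the proximal tubule water channel, at 1077 or more. Of the proximal tubule genes on the array, 6 of 25 transport and 2 of 25 metabolism genes were too dim to be tested. The 3-prime minus 5-prime log2 difference of the GAPDH control is a measure of RNA quality. Its resistant minus untreated change differed between the arms by 0.037 (two-sided exact permutation p = 0.666). The change of the ACTB measure differed by -0.015 (exact permutation p = 0.941). The level of the ACTB measure was not alike in the arms. Its means were 0.451 (resistant) and 0.455 (untreated) in the sorafenib arm, against 0.237 and 0.226 in the sunitinib arm. The permutations allowed a p of 3.15e-05 at the lowest. By ACTB, untreated tumour 5 of the sorafenib arm stood apart at 1.03, and the next highest was sorafenib-resistant tumour 4 at 0.674. Human probes can bind RNA of the mouse host, and in bulk tissue fewer cells of a type and less RNA per cell cannot be told apart.

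Most genes that separated the 2 arms were called in resistant against untreated tumours under sorafenib and were not called, or were called the other way, under sunitinib. Genes of ERK feedback (DUSP6, SPRY2, PHLDA1), the transporter SLCO4A1, the lipid genes MFSD2A, GPAT3 and G0S2 and the VEGF co-receptor NRP2 were higher under sorafenib. TSPAN2, TNFAIP6, THBS1 and the myosin light chain MYL9 were lower. Of 13808 genes tested, 131 were called at a limma adjusted p under 0.05 (0.949%), 61 higher (0.442%) and 70 lower (0.507%), and 77 of them differed by at least 1 on the log2 scale. At an unadjusted p under 0.05 there were 1987 genes, 14.4% of those tested, with 6.41% higher and 7.98% lower. The median over all genes was -0.035, and the median standard error was 0.22, so differences well under 1 on the log2 scale were mostly below what these tumours could show. After centring each array on its median, 64 genes were called higher and 36 lower, so that 64% of calls were higher against 46.6% without centring.

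Each arm had changed against its own untreated tumours. Under sorafenib 2092 genes were called (15.2%), 825 higher and 1267 lower. Under sunitinib 698 genes were called (5.06%), 306 higher and 392 lower. The arms share no tumours but share the estimate of spread of each gene, so their calls are not independent. There were 367 genes called in both, 17.5% of the sorafenib calls and 52.6% of the sunitinib calls. Of these, 359 had the same direction and 8 had opposite directions. Across the 13808 genes the differences of the arms had a Pearson correlation of 0.41 and a Spearman correlation of 0.33, a description over genes that share arrays. A further 1725 genes were called under sorafenib and missed the threshold under sunitinib, and the arms differed for 102 of them. Of the 331 called under sunitinib alone, the arms differed for 12.

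**Figure D1:**
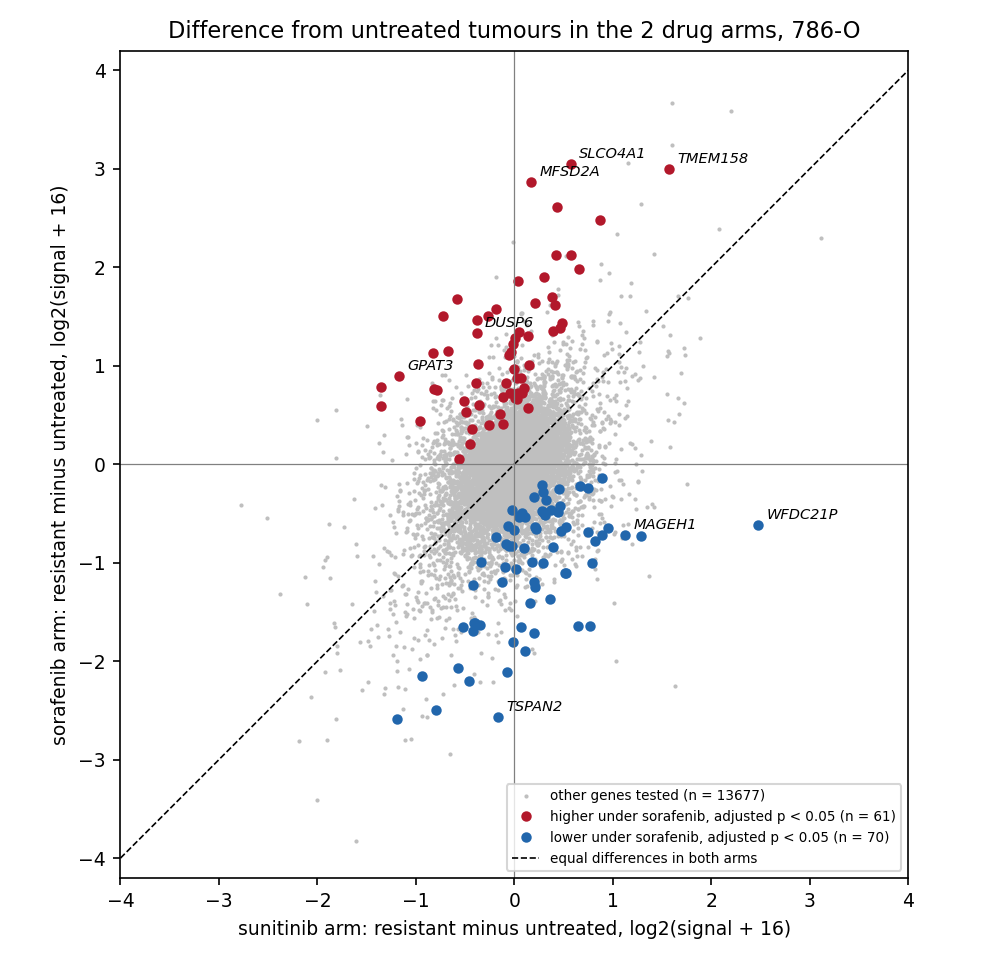
Resistant minus untreated difference of each of the 13808 genes tested, on the log2(signal + 16) scale, in the sorafenib arm (vertical axis) against the sunitinib arm (horizontal axis). The 61 genes called higher under sorafenib (red) lie above the dashed line of equal differences and the 70 called lower (blue) below it, most of them near 0 on the sunitinib axis.

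Among the 61 higher genes, 50 were called in the sorafenib arm alone, 5 in the sunitinib arm alone, 2 in both arms in the same direction and 4 in both in opposite directions. Their median difference from untreated was 1.02 under sorafenib and -0.013 under sunitinib. Among the 70 lower genes, 52 were called in the sorafenib arm alone, 7 in the sunitinib arm alone, 4 in both in the same direction, 4 in opposite directions and 3 in neither. Their medians were -0.83 under sorafenib and 0.20 under sunitinib. The 8 genes called in opposite directions were A4GALT, GPAT3, SPRY2 and PLEKHA1, which rose under sorafenib and fell under sunitinib, and CCDC80, MAGEH1, MYL9 and LXN, which fell under sorafenib and rose under sunitinib. PLEKHA1, a phosphoinositide-binding protein, and LXN, a carboxypeptidase inhibitor, are named here after their values were seen. Their arms differed by 0.78 and -1.15.

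DUSP6, the cytoplasmic phosphatase that removes the activating phosphates of ERK, separated the drugs most clearly among the ERK genes. Signals of DUSP6 were 1023, 1083, 1259, 1343 and 1624 in the sorafenib-resistant tumours and 527, 345, 472, 494 and 639.7 in the untreated tumours of the arm. They were 340.0, 435, 318 and 275 in the sunitinib-resistant tumours and 479.6, 396, 529, 443 and 388 in the untreated tumours of that arm. All 5 sorafenib-resistant tumours lay above the other 14 tumours, and the sunitinib-resistant tumours overlapped their untreated group at its low end. Against untreated tumours the log2 difference of DUSP6 was 1.33 ± 0.16 (SE) under sorafenib and -0.38 ± 0.17 under sunitinib, and the arms differed by 1.72 ± 0.24 (limma adjusted p = 0.000403). The arms differed 3.28-fold on the log2(signal + 16) scale. SPRY2, a Sprouty protein that dampens receptor signalling upstream of RAS and RAF, measured 269.8, 305, 309, 267 and 402 in sorafenib-resistant tumours and 194, 127, 148, 179 and 246 in their untreated counterparts. SPRY2 measured 145, 146, 92.8 and 61.4 in sunitinib-resistant tumours, against 273, 238, 138, 212 and 157 in untreated ones of the arm. The sorafenib-resistant tumours lay above their untreated group, while the sunitinib-resistant tumours lay below 4 of 5 untreated tumours and overlapped the fifth. For SPRY2 the log2 difference from untreated was 0.76 under sorafenib and -0.81 under sunitinib, and the arms differed by 1.58 ± 0.29 (limma adjusted p = 0.00683). PHLDA1, a gene induced by growth factor and ERK signalling, gave signals of 2213, 2345, 3038, 1908 and 2411 in sorafenib-resistant tumours, against 626, 566, 598, 653 and 658 in untreated tumours of that arm. Sunitinib-resistant tumours gave 784, 1616, 845 and 1186, against 1034, 649, 908, 878 and 879 in untreated tumours of their arm. Every sorafenib-resistant tumour exceeded every other 786-O tumour, and the sunitinib-resistant tumours spread widely. PHLDA1 thus differed from untreated by 1.90 ± 0.20 (log2, SE) under sorafenib and by 0.30 ± 0.21 under sunitinib, a difference between arms of 1.60 ± 0.29 (limma adjusted p = 0.00683).

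Of the 18 genes of the ERK output list 17 were tested, and 6 were called higher and 0 lower, against 0.949% of all genes called. Besides the 3 above these were DUSP5, SPRED2 and ETV5, which were chosen for naming after their values were seen. DUSP5, a nuclear ERK phosphatase, differed by 1.33 ± 0.30 (limma adjusted p = 0.0299). SPRED2, an inhibitor of RAF activation, differed by 0.90 ± 0.19 (limma adjusted p = 0.0225). ETV5, an ETS factor induced by ERK, differed by 0.96 ± 0.22 (limma adjusted p = 0.0312). In all 6 genes the sorafenib-resistant tumours lay above both their untreated group and the sunitinib-resistant tumours. The 6 genes had been called on these same tumours, so this separation is a description and no further evidence. At an unadjusted p under 0.05 there were 10 of 17, all positive, against 6.41% of all genes. The list's median was 0.81, against -0.035 over all genes. Under sorafenib 12 of the 17 were called higher, against 5.97% of all genes, and under sunitinib 4 were called higher (background 2.22%) and 1 lower (background 2.84%). The members that missed the threshold ran from ETV1 at 1.36 (adjusted p = 0.14) and FOSL1, an AP-1 subunit, at 0.98 (adjusted p = 0.101) to ETV4 at -0.27 and SPRY4 at -0.46. With the mean of all probe sets of each gene the list's median was 0.48. In limma fits that left out 1 of the 19 arrays, DUSP6, PHLDA1 and SPRY2 were called each time, and the call was lost for DUSP5 in 6 fits (adjusted p up to 0.0719, without sunitinib-resistant tumour 1), ETV5 in 7 fits (adjusted p up to 0.081, without sunitinib-resistant tumour 1) and SPRED2 in 1 fit (adjusted p up to 0.0607, without sunitinib-resistant tumour 1). Without the 2 arrays of highest ACTB difference DUSP5 (1.40, limma adjusted p = 0.0558) and ETV5 (0.98, limma adjusted p = 0.0676) lost the call, and the other 4 genes kept it. The summed skeletal muscle markers, given with the collagen genes, were on average lower in resistant than in untreated tumours of the sorafenib arm and higher in those of the sunitinib arm. With their mean as a covariate DUSP6 (1.68) and SPRY2 (1.81) kept the call. The other 4 lost it at differences of similar size, PHLDA1 (1.44, adjusted p = 0.127), DUSP5 (1.25, adjusted p = 0.226), SPRED2 (1.00, adjusted p = 0.104) and ETV5 (1.15, adjusted p = 0.0714).

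**Figure D2:**
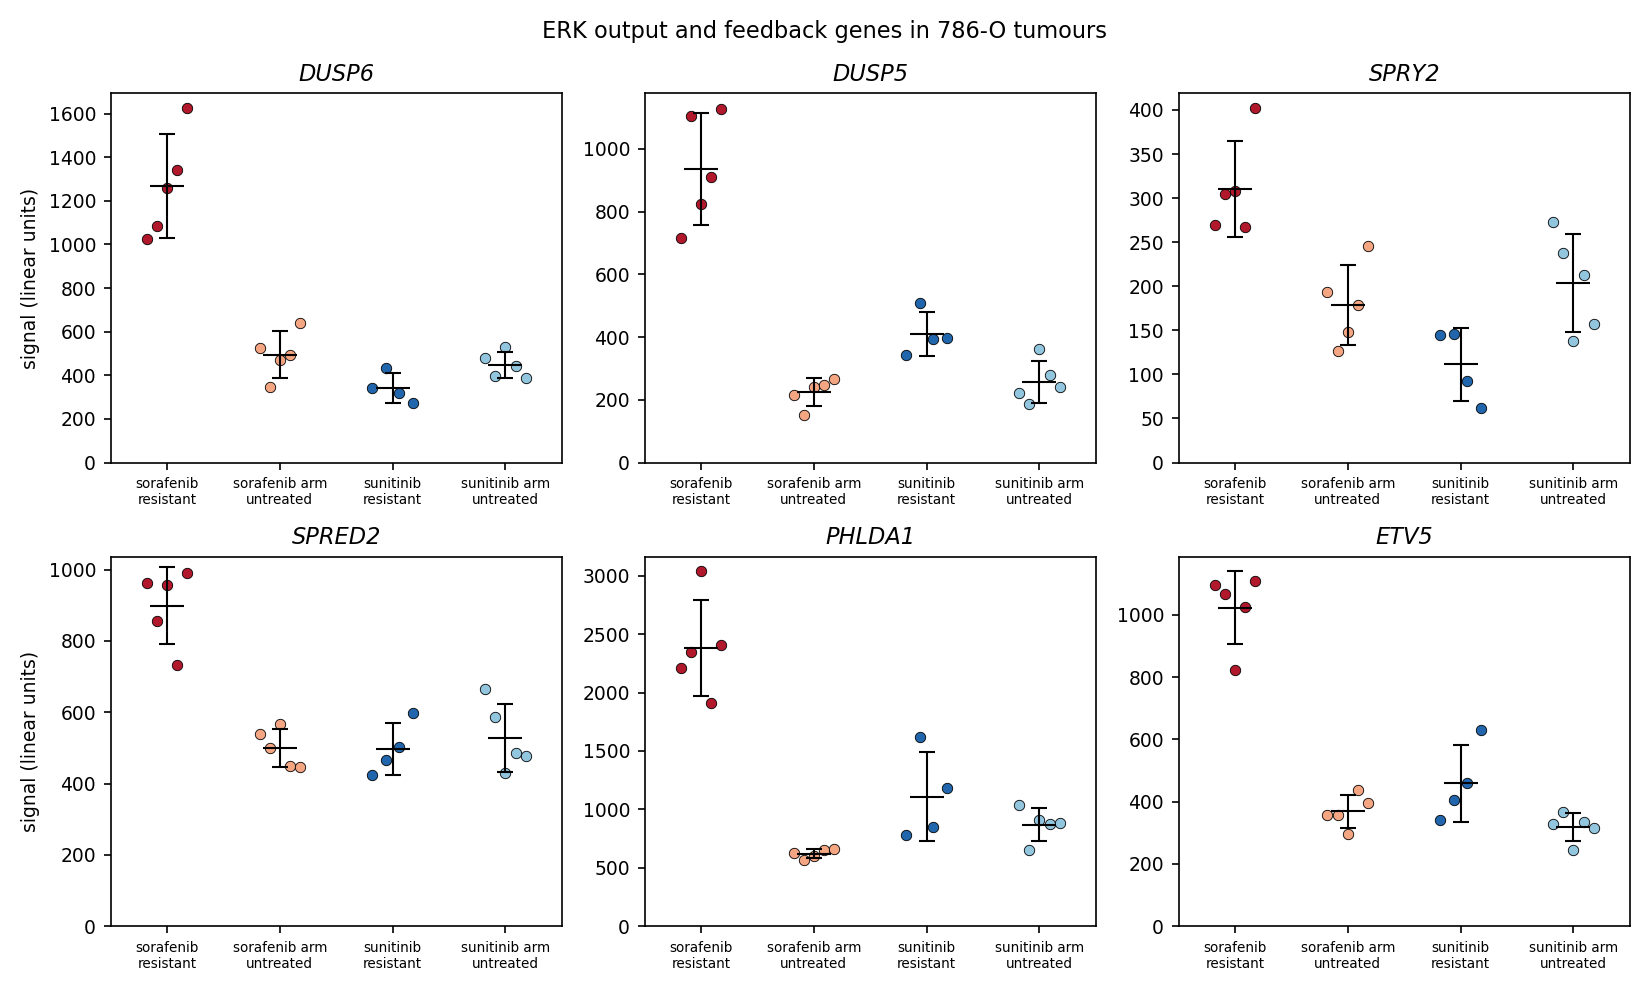
Signal (linear units) of the 6 called ERK output genes in each 786-O tumour: points are tumours, the bar is the mean and the whiskers are 1 SD (n = 5, 5, 4 and 5 from left to right). In each panel the 5 sorafenib-resistant tumours lie above all tumours of the other 3 groups, except in SPRY2, where 1 untreated tumour of the sunitinib arm, at 273, falls within their range of 267 to 402.

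The 300-base promoters of genes that moved together were searched on both strands for AP-1 (TGANTCA), cyclic AMP response (TGACGTCA), ETS (CCGGAAGT), sterol response (TCACNCCAC) and interferon response motifs and for the HIF core (ACGTG or GCGTG). DUSP6 and SPRY2 stand for the ERK genes, MAFF for a higher gene with a cyclic AMP response motif and TNFAIP6 for a lower gene with an AP-1 motif. Sequences are from RefSeq, build GRCh38.p14, and span the start of the gene, with every motif found in capitals.
DUSP6 promoter, chr12:89352452-89352751, minus strand: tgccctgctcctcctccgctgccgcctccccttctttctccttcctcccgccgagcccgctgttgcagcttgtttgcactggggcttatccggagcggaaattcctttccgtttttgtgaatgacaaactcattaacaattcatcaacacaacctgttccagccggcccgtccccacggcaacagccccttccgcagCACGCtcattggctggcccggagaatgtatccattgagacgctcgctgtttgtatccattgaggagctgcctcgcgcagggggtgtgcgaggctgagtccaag
SPRY2 promoter, chr13:80341077-80341376, minus strand: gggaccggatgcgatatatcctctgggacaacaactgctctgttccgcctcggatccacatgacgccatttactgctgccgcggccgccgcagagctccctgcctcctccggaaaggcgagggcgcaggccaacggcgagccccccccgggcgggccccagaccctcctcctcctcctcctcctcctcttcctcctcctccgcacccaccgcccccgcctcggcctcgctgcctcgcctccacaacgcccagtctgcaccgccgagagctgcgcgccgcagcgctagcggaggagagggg
MAFF promoter, chr22:38201744-38202043, plus strand: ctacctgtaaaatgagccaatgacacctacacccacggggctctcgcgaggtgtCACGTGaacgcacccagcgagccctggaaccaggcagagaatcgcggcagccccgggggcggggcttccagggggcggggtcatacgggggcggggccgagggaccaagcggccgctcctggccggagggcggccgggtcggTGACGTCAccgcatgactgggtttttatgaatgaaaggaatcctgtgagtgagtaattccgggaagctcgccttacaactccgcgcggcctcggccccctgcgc
TNFAIP6 promoter, chr2:151357342-151357641, plus strand: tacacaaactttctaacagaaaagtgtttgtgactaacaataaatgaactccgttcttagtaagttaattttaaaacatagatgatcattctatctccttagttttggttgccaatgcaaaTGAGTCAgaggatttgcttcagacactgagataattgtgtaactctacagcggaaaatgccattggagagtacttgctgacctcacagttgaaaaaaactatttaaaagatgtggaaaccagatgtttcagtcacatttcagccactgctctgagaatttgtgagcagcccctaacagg
SPRY2 held none of the 6 motifs in this window and DUSP6 held 1, a HIF core. MAFF held TGACGTCA at position -54 from the start and a palindromic CACGTG that is read as a HIF core on both strands. TNFAIP6 held an AP-1 match at position -129. Of the 61 higher genes 48 had a promoter in the table and 1 of them held an AP-1 match (2.08%). Of the 70 lower genes 52 had one and 1 held it (1.92%). The motif was in 4.83% of the promoters of all genes tested and in 7.76% of all 27305 promoters of this length. Of the ERK list 10 of 17 tested genes had a promoter in the table, and 0 held AP-1 or ETS. TGACGTCA was in 6.25% of higher, 5.77% of lower and 3.06% of all tested genes' promoters. The HIF core was in 68.8% of higher, 61.5% of lower and 61.4% of all tested. The other shares among higher and lower genes were 0.0% and 3.85% for ETS, 0.0% and 1.92% for the sterol motif, and 0.0% in both for the interferon motif. Matches overlapping between motifs were counted for each.

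The growth factor EREG and the neuropilins NRP2 and NRP1 were among the 61 higher genes. Signals of EREG (epiregulin), a ligand of the EGF receptor, were 590.5, 292, 709, 1003 and 1019.5 in the sorafenib-resistant tumours and 301, 441, 429.8, 206 and 180.3 in the untreated tumours of the arm. They were 185, 191, 163 and 264 in the sunitinib-resistant tumours and 253, 327, 376, 523 and 378 in the untreated tumours of that arm. The 2 resistant groups did not overlap, and each overlapped its own untreated group. The log2 difference from untreated was 1.13 ± 0.31 (SE) under sorafenib and -0.82 ± 0.33 under sunitinib, 1.95 ± 0.45 apart (limma adjusted p = 0.0355). The EGF receptor itself did not pass the test (0.036, adjusted p = 0.972), nor did the ligands HBEGF (1.41) and TGFA (0.71). Of 8 EGF family genes tested EREG was the 1 called, and the median was 0.15. NRP2, a co-receptor for VEGF-C and semaphorins, measured 1365, 1911, 1147, 2002 and 1939.9 in sorafenib-resistant tumours and 781, 621, 683, 562 and 671 in their untreated counterparts. NRP2 measured 790.5, 834, 713 and 989 in sunitinib-resistant tumours, against 931, 832, 824, 685 and 867 in untreated ones of the arm. All sorafenib-resistant tumours lay above all other 786-O tumours. Its arms differed by 1.28 ± 0.21 (limma adjusted p = 0.0028), with 1.29 under sorafenib and 0.0038 under sunitinib. Its relative NRP1, a co-receptor of VEGFA, differed by 0.97 ± 0.23, adjusted p = 0.0408. The remaining 11 of 13 ligands and neuropilins tested were not called, among them VEGFA (-0.071), PGF (0.56), a placental VEGF receptor ligand, and PDGFB (0.30). The list's median was -0.19.

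HMGA2, an architectural chromatin protein of embryonic and tumour tissue, was among the clearest. HMGA2 gave signals of 716, 1010.0, 936, 718 and 1325 in sorafenib-resistant tumours, against 199.5, 330.0, 306, 329 and 511 in untreated tumours of that arm. Sunitinib-resistant tumours gave 282, 311, 278 and 239.9, against 429, 398, 313, 358 and 332 in untreated tumours of their arm. The 5 sorafenib-resistant tumours were the highest of the 19, and the 4 sunitinib-resistant tumours lay below their untreated group. Against untreated tumours the log2 difference of HMGA2 was 1.47 ± 0.21 (SE) under sorafenib and -0.37 ± 0.23 under sunitinib, and the arms differed by 1.84 ± 0.31 (limma adjusted p = 0.0028). Its paralog HMGA1 differed by 2.17 ± 0.50, adjusted p = 0.0356, with both untreated groups below the filter level and a direction its other probe set did not share, and the AP-1 partner MAFF by 1.61 ± 0.37, adjusted p = 0.0356. Between the arms (sorafenib minus sunitinib), the untreated groups differed in MAFF by -1.02 (limma adjusted p = 0.0802). The resistant groups differed by 0.59 (limma adjusted p = 0.194) and overlapped. Of 15 immediate early genes tested MAFF was the 1 called, and the median was 0.18. NT5E (CD73), which makes adenosine from AMP, rose in the sorafenib arm by 2.13 ± 0.18 and differed between the arms by 1.56 ± 0.26, adjusted p = 0.0028. TMEM158, a membrane protein induced by RAS, rose in both arms, by 3.00 ± 0.21 under sorafenib and 1.57 ± 0.22 under sunitinib, and the arms differed by 1.43 ± 0.30, adjusted p = 0.0223. RPS6KA5 (MSK1), a kinase activated by ERK and p38, differed by 1.16 ± 0.17, adjusted p = 0.000831 on the probe set used, and another of its probe sets went the other way at an unadjusted p under 0.05. NT5E, TMEM158 and RPS6KA5 were chosen after their values were seen. Of the 9 genes of this and the preceding set, HMGA2, NRP2, NT5E and RPS6KA5 were called in each fit without 1 array. The call was lost for EREG in 12 fits (adjusted p up to 0.0736, without sorafenib-resistant tumour 5), NRP1 in 12 fits (adjusted p up to 0.0727, without sorafenib-resistant tumour 5), HMGA1 in 10 fits (adjusted p up to 0.081, without sunitinib-resistant tumour 1), MAFF in 8 fits (adjusted p up to 0.0825, without sunitinib-resistant tumour 1) and TMEM158 in 2 fits (adjusted p up to 0.0607, without sunitinib-resistant tumour 1).

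GPAT3, G0S2, MFSD2A, CIDEB, LPIN1 and LRP8, genes of lipid handling, were among the 61 higher genes. Signals of GPAT3, an acyltransferase that starts triglyceride synthesis, were 242, 244, 216, 292 and 208 in the sorafenib-resistant tumours and 101, 123, 152, 127 and 107 in the untreated tumours of the arm. They were 52.9, 87.4, 42 and 32.4 in the sunitinib-resistant tumours and 154, 142, 153, 141 and 90.1 in the untreated tumours of that arm. Sorafenib-resistant tumours lay above and sunitinib-resistant tumours below their untreated groups, with no overlap in either arm. GPAT3 thus differed from untreated by 0.90 ± 0.19 (log2, SE) under sorafenib and by -1.17 ± 0.20 under sunitinib, a difference between arms of 2.06 ± 0.27 (limma adjusted p = 0.000403). G0S2, an inhibitor of the triglyceride lipase ATGL, measured 3258, 2184, 2465, 3595 and 2627 in sorafenib-resistant tumours and 883, 583, 954, 631 and 788 in their untreated counterparts. G0S2 measured 1210.2, 1526, 1489 and 1495 in sunitinib-resistant tumours, against 909.9, 1078, 1920.1, 1776 and 1518 in untreated ones of the arm. The sorafenib-resistant tumours were all above both their untreated group and the sunitinib-resistant tumours, and the sunitinib groups overlapped. For G0S2 the log2 difference from untreated was 1.86 under sorafenib and 0.04 under sunitinib, and the arms differed by 1.82 ± 0.30 (limma adjusted p = 0.00275). MFSD2A, a transporter of lysophosphatidylcholine, gave signals of 429.8, 362, 505, 329.7 and 339 in sorafenib-resistant tumours, against 115, 19.3, 70.9, 16.5 and 24.3 in untreated tumours of that arm. Sunitinib-resistant tumours gave 147, 110.1, 85.6 and 139.9, against 88.4, 94.4, 117, 77.8 and 154 in untreated tumours of their arm. The sorafenib-resistant tumours lay above their untreated group, 4 of whose 5 tumours were below the filter level of 89.4, and above the sunitinib-resistant tumours. The log2 difference from untreated was 2.86 ± 0.37 (SE) under sorafenib and 0.17 ± 0.39 under sunitinib, 2.70 ± 0.54 apart (limma adjusted p = 0.0132). The untreated groups differed in MFSD2A by -1.11 (limma adjusted p = 0.187) and the resistant groups by 1.59 (limma adjusted p = 0.0155). The other probe set of MFSD2A did not share the direction of the difference between the arms.

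CIDEB, a lipid droplet protein of liver and kidney, differed by 2.26 ± 0.51, adjusted p = 0.0303, with 3 of its 4 groups below the filter level. Its untreated groups differed by -1.08 (limma adjusted p = 0.177) and its resistant groups by 1.18 (limma adjusted p = 0.0526). LPIN1, a phosphatidate phosphatase, differed by 1.24 ± 0.25, adjusted p = 0.014, and LRP8, a receptor of the LDL family, by 1.30 ± 0.25, adjusted p = 0.0122, the last chosen after its values were seen. Of 16 fatty acid and lipid droplet genes tested, MFSD2A and LPIN1 were called, and the median was 0.22. SCD, the stearoyl-CoA desaturase, rose in both arms, by 3.24 ± 0.34 under sorafenib and 1.60 ± 0.36 under sunitinib, and the arms differed by 1.64 ± 0.49, adjusted p = 0.104, short of the threshold. Of 17 cholesterol synthesis and uptake genes tested 0 were called at an adjusted limma p under 0.05. At an unadjusted p under 0.05 there were 11, all positive, against 6.41% of all genes. Above 0 were 16 of 17, against 6263 of all 13808 genes tested, and the median was 0.53. The largest was INSIG1, the sterol-sensing retention protein of SREBP, at 1.28 (adjusted p = 0.151). The call of CIDEB was lost in 6 of the 19 fits without 1 array (adjusted p up to 0.0596, without untreated tumour 4 of the sorafenib arm), and the calls of the other 5 lipid genes were kept in all 19. Without the 2 arrays of highest ACTB difference LPIN1 lost the call (1.07, limma adjusted p = 0.0553). With the muscle marker mean as a covariate only GPAT3 (2.10) of the 6 kept the call. The others were MFSD2A (1.79, adjusted p = 0.278), G0S2 (1.57, adjusted p = 0.0862), CIDEB (1.99, adjusted p = 0.253), LPIN1 (1.01, adjusted p = 0.226) and LRP8 (1.02, adjusted p = 0.226).

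Transporters, channels and a glycosyltransferase were among the genes most different between the drugs. Signals of SLCO4A1, an organic anion transporter that carries thyroid hormone, were 10072, 9357, 10881, 9502 and 11036 in the sorafenib-resistant tumours and 1203, 1335, 1278, 1109 and 1144 in the untreated tumours of the arm. They were 1262, 3297, 2641 and 2421 in the sunitinib-resistant tumours and 1031, 1093, 1739, 1892 and 2191 in the untreated tumours of that arm. All 5 sorafenib-resistant tumours lay far above the other 14. Against untreated tumours the log2 difference of SLCO4A1 was 3.05 ± 0.24 (SE) under sorafenib and 0.57 ± 0.25 under sunitinib, and the arms differed by 2.48 ± 0.35 (limma adjusted p = 0.000403). Of 11 efflux pumps and SLCO transporters tested it was the 1 called, and the median was 0.12. A4GALT, the synthase of the glycolipid globotriaosylceramide, measured 109, 107, 141, 162 and 121 in sorafenib-resistant tumours and 29.6, 31.7, 37.2, 21.5 and 56.3 in their untreated counterparts. A4GALT measured 40.8, 27.9, 73.6 and 72.6 in sunitinib-resistant tumours, against 111, 112, 109, 63.8 and 85.1 in untreated ones of the arm. Sorafenib-resistant tumours lay above both their untreated group and the sunitinib-resistant tumours. The untreated tumours of the sorafenib arm lay below those of the sunitinib arm without overlap. Its arms differed by 2.24 ± 0.29 (limma adjusted p = 0.000403), with 1.51 under sorafenib and -0.73 under sunitinib. For A4GALT the untreated groups themselves differed by -1.14 (limma adjusted p = 0.0117).

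TRPM8, a cold-sensing calcium channel, differed by 1.76 ± 0.31, adjusted p = 0.00553, a direction its other probe set did not share, and KCNJ15, an inward rectifier potassium channel of the kidney, by 2.13 ± 0.49, adjusted p = 0.0358. KCNJ15 fell under sunitinib (-1.35 ± 0.36) and was not called under sorafenib (0.78 ± 0.34). SLC2A3, the glucose transporter GLUT3, differed by 1.32 ± 0.28, adjusted p = 0.0225, on a probe set that may also bind its close paralog. Of 17 glucose uptake and glycolysis genes tested it was the 1 called, and the median was -0.15. ZNF501, a zinc finger gene (1.94 ± 0.44, adjusted p = 0.0303), EFCAB13-DT, a divergent transcript (1.82 ± 0.40, adjusted p = 0.0255), and BLACAT1, a long noncoding RNA (1.78 ± 0.40, adjusted p = 0.0295), complete the 15 largest. ZNF501 and BLACAT1 had group means below the filter level in all 4 groups of 786-O, and with a pseudocount of 1 BLACAT1 lost its call (adjusted p = 0.0733). In fits without 1 array SLCO4A1, A4GALT and TRPM8 were always called, and the call was lost for KCNJ15 in 12 fits (adjusted p up to 0.0831, without sunitinib-resistant tumour 4), ZNF501 in 9 fits (adjusted p up to 0.0633, without untreated tumour 5 of the sunitinib arm), BLACAT1 in 8 fits (adjusted p up to 0.0664, without sunitinib-resistant tumour 4), EFCAB13-DT in 3 fits (adjusted p up to 0.0714, without sunitinib-resistant tumour 1) and SLC2A3 in 2 fits (adjusted p up to 0.0607, without sunitinib-resistant tumour 1).

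**Figure D3:**
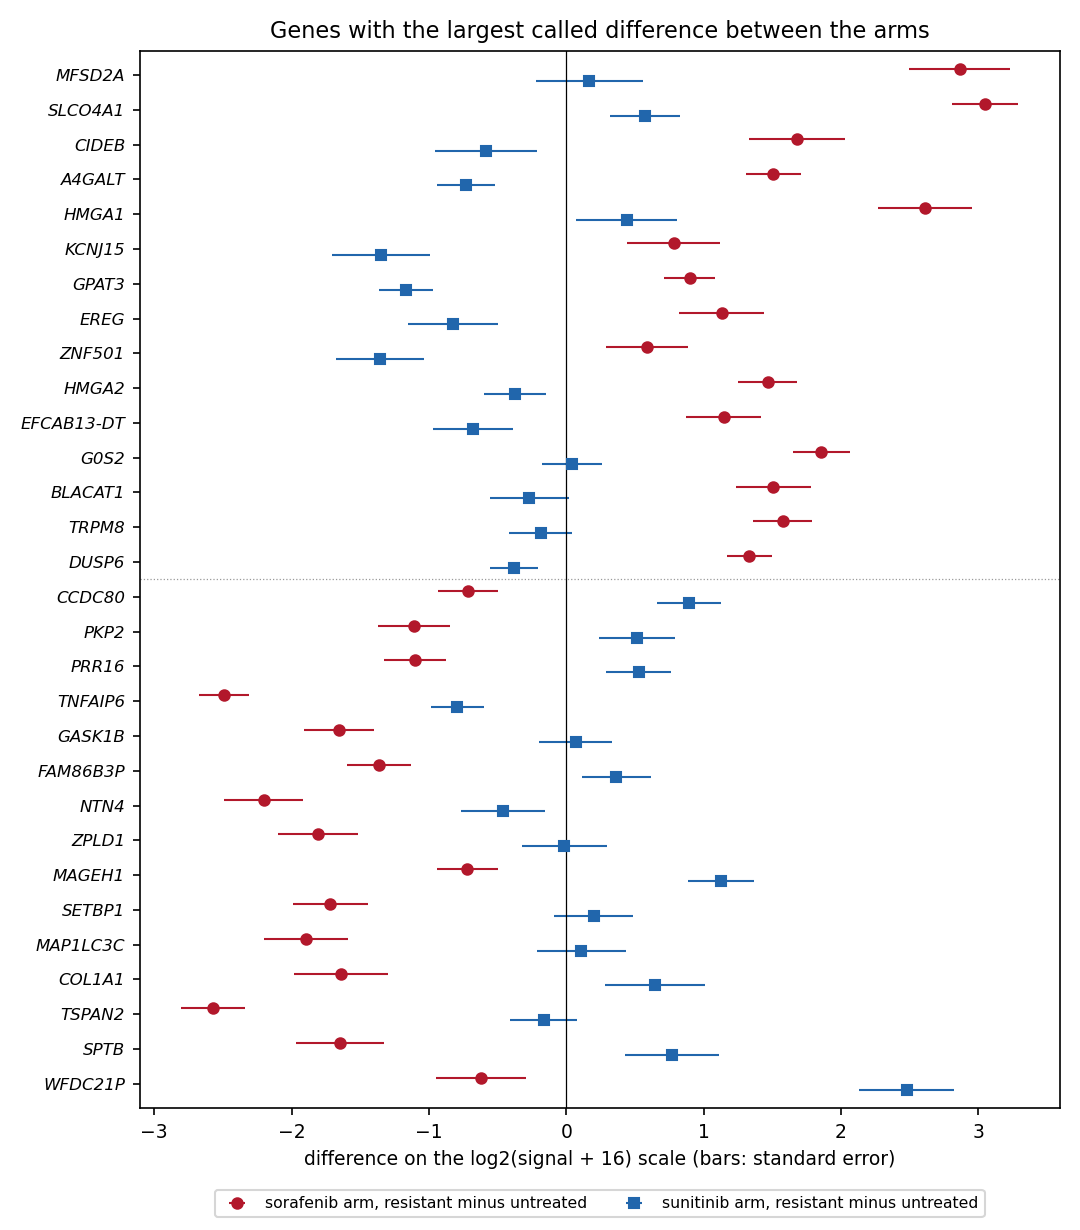
Resistant minus untreated difference on the log2(signal + 16) scale for the 15 genes called higher (above the dotted line) and the 15 called lower with the largest difference between the arms, passing over 3 larger uncharacterised loci among the lower: red circles are the sorafenib arm, blue squares the sunitinib arm and bars 1 SE. For most genes the red point lies far from 0 and the blue point near it, while for WFDC21P the blue point, at 2.48, is the distant one.

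THBS1, TNFAIP6, SDC2, NTN4 and CCDC80, genes of the matrix and cell surface, were among the 70 lower genes. THBS1 (thrombospondin 1), a matrix protein that restrains blood vessel growth, gave signals of 859, 1507, 955, 798 and 1074 in sorafenib-resistant tumours, against 4106, 4568, 3590.4, 4559 and 4749.7 in untreated tumours of that arm. Sunitinib-resistant tumours gave 2225, 2779, 1825 and 2763, against 3848, 3582, 3355, 3495 and 3392 in untreated tumours of their arm. Resistant tumours of both arms lay below their untreated groups, those of the sorafenib arm far below. THBS1 thus differed from untreated by -2.07 ± 0.20 (log2, SE) under sorafenib and by -0.58 ± 0.21 under sunitinib, a difference between arms of -1.49 ± 0.29 (limma adjusted p = 0.0127). Signals of TNFAIP6 (TSG-6), which binds hyaluronan, were 1214, 681, 792, 537 and 743 in the sorafenib-resistant tumours and 3978, 4879.7, 3419, 4482 and 5381 in the untreated tumours of the arm. They were 2636, 1875, 1542 and 2529 in the sunitinib-resistant tumours and 3854, 3862, 4385, 3569 and 2739 in the untreated tumours of that arm. Both resistant groups lay below their untreated groups with no overlap, and the sorafenib-resistant tumours below the sunitinib-resistant ones. For TNFAIP6 the log2 difference from untreated was -2.49 under sorafenib and -0.79 under sunitinib, and the arms differed by -1.70 ± 0.27 (limma adjusted p = 0.00172). SDC2, a heparan sulphate proteoglycan, likewise fell in both arms, by 1.65 on the log2 scale under sorafenib and by 0.52 under sunitinib, and the arms differed by -1.14 ± 0.19, adjusted p = 0.0028. NTN4 (netrin 4), a basement membrane protein, differed by -1.74 ± 0.42, adjusted p = 0.0432. CCDC80, a matrix protein, fell under sorafenib (-0.72 ± 0.22) and rose under sunitinib (0.90 ± 0.23). Its arms differed by -1.61 ± 0.32, adjusted p = 0.0132. Of 11 matricellular genes tested THBS1 was the 1 called and the median was -0.44. Of the 11, 9 were negative, while 6263 of all 13808 genes tested were positive. THBS1, TNFAIP6, SDC2 and CCDC80 were called in each fit without 1 array, and the call was lost for NTN4 in 15 fits (adjusted p up to 0.0871, without sorafenib-resistant tumour 5). Without the 2 arrays of highest ACTB difference THBS1 (-1.37, limma adjusted p = 0.0539) and NTN4 (-1.58, limma adjusted p = 0.128) lost the call. SDC2 was chosen after its values were seen.

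MYL9 and 5 other genes of the actin cytoskeleton, all 6 chosen after their values were seen, were among the 70 lower genes. MYL9, a regulatory light chain of smooth muscle and nonmuscle myosin, measured 1381, 1249.6, 1066, 872 and 649 in sorafenib-resistant tumours and 2535, 1595, 1414, 1858 and 1509 in their untreated counterparts. MYL9 measured 2315, 2256, 2791 and 2927 in sunitinib-resistant tumours, against 1753, 1393, 1607, 1137 and 1401 in untreated ones of the arm. The sorafenib-resistant tumours lay below and the sunitinib-resistant tumours above their untreated groups, with no overlap in either arm. The log2 difference from untreated was -0.78 ± 0.19 (SE) under sorafenib and 0.82 ± 0.20 under sunitinib, -1.60 ± 0.27 apart (limma adjusted p = 0.00323). TPM4, a tropomyosin, rose under sunitinib (0.90 ± 0.18) and was not called under sorafenib (-0.14 ± 0.17), and the arms differed by -1.04 ± 0.25, adjusted p = 0.0458. The actin binding proteins NEXN (-1.39 ± 0.29, adjusted p = 0.019) and CNN3, a calponin (-0.58 ± 0.13, adjusted p = 0.0255), the actin filament elongation factor ENAH (-0.95 ± 0.21, adjusted p = 0.0247) and the junctional LIM protein AJUBA (-1.07 ± 0.20, adjusted p = 0.00987) fell under sorafenib and were not called under sunitinib. These 6 genes make no list with a count of its own. SPTB, beta spectrin of the red cell and muscle membrane skeleton, differed by -2.42 ± 0.47, adjusted p = 0.0113. In 786-O its group means were below the filter level except in untreated tumours of the sorafenib arm. The size moved with the pseudocount, to -3.24 at 1 and -1.40 at 64, with the call kept. In fits without 1 array MYL9, AJUBA and SPTB were always called. The call was lost for TPM4 in 17 fits (adjusted p up to 0.0937, without untreated tumour 4 of the sorafenib arm), ENAH in 4 fits (adjusted p up to 0.0564, without sunitinib-resistant tumour 1), CNN3 in 3 fits (adjusted p up to 0.0634, without sunitinib-resistant tumour 4) and NEXN in 1 fit (adjusted p up to 0.0522, without sunitinib-resistant tumour 4).

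Markers of skeletal muscle and of fibroblasts and pericytes also differed in level between some of the groups. Whether their signal came from mouse tissue or from the tumour cells was not tested. The summed signal of 14 skeletal muscle markers was 792, 1224, 662, 1025 and 716 in sorafenib-resistant tumours, against 827, 1979, 1234, 2499 and 1700.3 in untreated tumours of the arm. In sunitinib-resistant tumours it was 1881, 1144, 2336 and 2019.8, against 1431, 1563, 635, 1363 and 536 in untreated tumours of their arm. The groups of each arm overlapped. Of the 7 muscle markers tested 0 were called by limma and the median was -1.71. At an unadjusted limma p under 0.05, 5 were lower and 0 higher, against 7.98% and 6.41% of all genes. The largest was ACTA1, skeletal muscle actin, at -2.42 (adjusted p = 0.172), and the smallest TTN, titin, at -0.60. The other 7 markers on the array were below the filter level. With the mean of the tested muscle markers as a covariate 29 genes were called, 25 of them among the 131, and 16 of the 53 called genes named here kept the call. The 131 differences were then 0.952 times their size without it at the median (range 0.615 to 1.39), and their standard errors 1.24 times as large. Of the 7 cytoskeletal genes SPTB kept the call, and it was lost for MYL9 (-1.55, adjusted p = 0.059), TPM4 (-1.24, adjusted p = 0.117), NEXN (-1.15, adjusted p = 0.235), CNN3 (-0.56, adjusted p = 0.218), ENAH (-0.88, adjusted p = 0.226) and AJUBA (-0.99, adjusted p = 0.135). Of the matrix genes CCDC80 kept it, and THBS1 (-1.37, adjusted p = 0.164), SDC2 (-0.93, adjusted p = 0.108), TNFAIP6 (-1.52, adjusted p = 0.0501) and NTN4 (-1.66, adjusted p = 0.257) did not.

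The summed signal of 18 fibroblast and pericyte markers was 6511, 4998, 4767, 5501 and 3932 in sorafenib-resistant tumours, against 12077, 12053, 8456, 10906 and 10820.0 in the untreated tumours of the arm. Sunitinib-resistant tumours gave 7281, 4290.5, 4837 and 11728, against 9476, 7791, 6438, 8117 and 4856 in untreated tumours of that arm. The sorafenib groups did not overlap, and the sunitinib groups did. In A498 the same sum averaged 19674 in sorafenib-resistant and 13248 in untreated tumours. COL1A1, a chain of type I collagen, was the 1 called of the 12 tested members. COL1A1 gave signals of 219, 241, 153, 291 and 201 in sorafenib-resistant tumours, against 647, 1166, 653, 708 and 518 in untreated tumours of that arm. Sunitinib-resistant tumours gave 549, 281, 260.1 and 909, against 442, 379, 256, 219.9 and 162 in untreated tumours of their arm. Sorafenib-resistant tumours lay below their untreated group, which in turn lay above the untreated tumours of the sunitinib arm. The untreated groups differed by 1.32 (limma adjusted p = 0.0878) and the resistant groups by -0.97 (limma adjusted p = 0.108). Against untreated tumours the log2 difference of COL1A1 was -1.64 ± 0.34 (SE) under sorafenib and 0.65 ± 0.36 under sunitinib, and the arms differed by -2.29 ± 0.50 (limma adjusted p = 0.0255). The call of COL1A1 was lost in 4 of the 19 fits without 1 array (adjusted p up to 0.0644, without sunitinib-resistant tumour 4). COL3A1 at -1.29 and COL1A2 at -1.01 were not called, and the list's median was -0.66. At an unadjusted limma p under 0.05, 5 of the 12 were lower and 0 higher, against 7.98% and 6.41% of all genes. With the mean of the tested fibroblast markers as a covariate 37 genes were called, 35 of them among the 131, and 21 of the 53 named called genes kept the call. The 131 differences were then 0.943 times their size without it at the median (range 0.649 to 1.24), and their standard errors 1.12 times as large. THBS1, TNFAIP6, SDC2 and MYL9 were among the 21, and CCDC80 (-1.40, adjusted p = 0.0929), NTN4 (-1.93, adjusted p = 0.0841) and COL1A1 (-1.49, adjusted p = 0.153) were not. COL1A1 is itself 1 of the averaged markers and was thus adjusted in part for its own signal, so its lost call tells nothing further. The endothelial (-0.037), macrophage (-0.007), skin and adipose (-0.028) and red cell (0.078) marker medians were close to the -0.035 of all genes, with 0 members called of 7, 10, 6 and 2 tested. Summed endothelial markers ran from 876 to 1336 in sorafenib-resistant and 1149 to 1501 in untreated tumours of the arm, and from 972 to 1237 in sunitinib-resistant and 1116 to 1286 in untreated tumours of their arm. KDR, the main VEGF receptor of endothelium, was below the filter level.

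**Figure D4:**
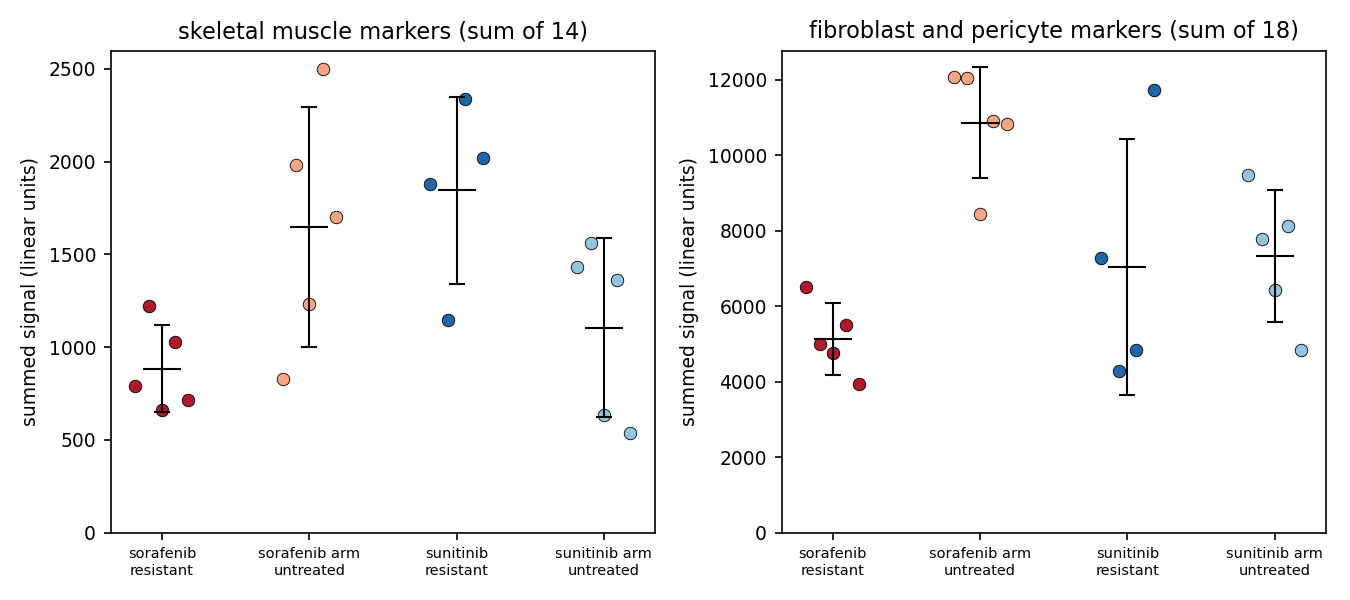
Summed signal (linear units) of the skeletal muscle markers (left) and the fibroblast and pericyte markers (right) in each 786-O tumour: points are tumours, the bar is the mean and whiskers are 1 SD (n = 5, 5, 4 and 5 from left to right). Muscle sums overlap between groups, with means of 884 and 1648 in resistant and untreated tumours of the sorafenib arm and 1845 and 1106 in those of the sunitinib arm, and fibroblast sums of the 2 sorafenib groups do not overlap.

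WFDC21P was called under sunitinib and not under sorafenib, and MAGEH1 was called in both arms in opposite directions. Signals of WFDC21P, a transcribed pseudogene of the WAP family, were 8.43, 7.71, 11.1, 9.2 and 6.27 in the sorafenib-resistant tumours and 50.3, 18.7, 7.3, 20.8 and 22 in the untreated tumours of the arm. They were 200.2, 212, 273 and 127 in the sunitinib-resistant tumours and 25.9, 17, 9.65, 41.6 and 23.7 in the untreated tumours of that arm. The sunitinib-resistant tumours lay above all other 786-O tumours, while the means of the other 3 groups were below the filter level. WFDC21P thus differed from untreated by -0.62 ± 0.33 (log2, SE) under sorafenib and by 2.48 ± 0.35 under sunitinib, a difference between arms of -3.10 ± 0.48 (limma adjusted p = 0.00139). The size rests on signals near the floor and moved with the pseudocount, to -4.31 at 1 and -1.85 at 64, with the call kept. MAGEH1, a member of the MAGE family, measured 342, 625, 404, 301 and 251 in sorafenib-resistant tumours and 432, 803, 469.6, 702 and 756 in their untreated counterparts. MAGEH1 measured 878, 821, 900.4 and 1056 in sunitinib-resistant tumours, against 304, 323, 553, 416 and 501 in untreated ones of the arm. The sunitinib-resistant tumours lay above their untreated group, and the sorafenib groups overlapped. Its arms differed by -1.84 ± 0.33 (limma adjusted p = 0.00544), with -0.72 under sorafenib and 1.13 under sunitinib. Most of the remaining lower genes had fallen under sorafenib. TSPAN2, a tetraspanin of the cell surface, gave signals of 1590.2, 1567, 871, 769.8 and 879 in sorafenib-resistant tumours, against 6003, 6465, 5239, 8048 and 7036 in untreated tumours of that arm. Sunitinib-resistant tumours gave 4289, 3418, 3013 and 4493, against 5318, 4054, 4827, 4061 and 3128 in untreated tumours of their arm. Every sorafenib-resistant tumour lay below every other 786-O tumour, and the sunitinib groups overlapped. The log2 difference from untreated was -2.57 ± 0.23 (SE) under sorafenib and -0.16 ± 0.25 under sunitinib, -2.40 ± 0.34 apart (limma adjusted p = 0.000403).

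MAP1LC3C, an autophagy protein of the LC3 family, differed by -2.01 ± 0.44, adjusted p = 0.027. GASK1B, a Golgi-associated kinase family protein (-1.72 ± 0.37, adjusted p = 0.0225), ZPLD1, a zona pellucida domain protein (-1.79 ± 0.42, adjusted p = 0.0408), and PRR16, a regulator of cell size (-1.63 ± 0.33, adjusted p = 0.0142), followed the same pattern of a fall under sorafenib and no call under sunitinib. In 786-O the group means of PRR16 were below the filter level except in untreated tumours of the sorafenib arm. Its difference moved to -2.04 at a pseudocount of 1 and -1.02 at 64, with the call kept. NQO1, the quinone reductase of the NRF2 response, differed by -0.66 ± 0.16, limma adjusted p = 0.0485. NQO1 was the 1 called of 18 NRF2 and glutathione genes tested (median -0.22). WFDC21P, MAGEH1, TSPAN2 and PRR16 were called in every fit without 1 array, and the call was lost for NQO1 in 15 fits (adjusted p up to 0.116, without sunitinib-resistant tumour 1), ZPLD1 in 14 fits (adjusted p up to 0.1, without sunitinib-resistant tumour 1), MAP1LC3C in 6 fits (adjusted p up to 0.0644, without sunitinib-resistant tumour 4) and GASK1B in 1 fit (adjusted p up to 0.0575, without sunitinib-resistant tumour 4).

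Untreated tumours of the 2 arms, which had received no drug, differed by 38 genes called (0.275%), 29 higher (0.21%) and 9 lower (0.0652%) in the sorafenib arm. That count was unstable, with 2 genes in a fit of 786-O arrays alone, 91 with array weights and 14 to 50 without 1 array. Of the 131 genes 8 were among them, 3 of the 61 higher and 5 of the 70 lower. The 3 higher genes were A4GALT, CLMN and PRUNE2, with untreated differences between -1.14 and -0.62. The 5 lower genes were SETBP1, FAM86B3P, PKP2, USP19 and AP5S1. SETBP1, a nuclear SET-binding protein, differed between the arms by -1.92 ± 0.40, adjusted p = 0.019, and between the untreated groups by 1.23. FAM86B3P, a pseudogene with near-identical copies whose signal is uncertain for that reason, differed by -1.73 ± 0.34, adjusted p = 0.0132, and PKP2 (plakophilin 2), a desmosome plaque protein, by -1.62 ± 0.38, adjusted p = 0.0405. PKP2 was below the filter level in all 19 tumours of 786-O, and its call was lost with a pseudocount of 1 (adjusted p = 0.0588) and of 64 (adjusted p = 0.0757). SETBP1 and FAM86B3P were below it in 3 of the 4 groups, and no other probe set of SETBP1, FAM86B3P or PKP2 shared the direction. The resistant groups differed from each other by -0.69 in SETBP1, -0.64 in FAM86B3P and -0.27 in PKP2, none called. An untreated difference enters the difference between the arms with the opposite sign, also where it is not called. Its median was -0.28 over the 61 higher genes, 0.21 over the 70 lower genes and 0.032 over all genes. Set directly against each other, the resistant groups differed in 926 genes (6.71%), 111 of the 131 among them. CLMN, PRUNE2, USP19 and AP5S1 are named because their count is small. The call was lost for PKP2 in 13 fits (adjusted p up to 0.0986, without sunitinib-resistant tumour 1) and SETBP1 in 1 fit (adjusted p up to 0.0508, without sunitinib-resistant tumour 1).

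Genes of interest in renal carcinoma were also read whatever their test. VEGFA rose in both arms, 0.35 ± 0.10 under sorafenib and 0.43 ± 0.11 under sunitinib, and the difference of -0.071 ± 0.15 (adjusted p = 0.88) changed sign with other probe sets or scaling. EPAS1 rose in both arms (0.90 ± 0.11 under sorafenib and 0.50 ± 0.12 under sunitinib), and its difference was 0.41 ± 0.16, adjusted p = 0.233. The proliferation antigen MKI67 differed by -0.19 ± 0.26 and was called in neither arm. MMP1, interstitial collagenase, rose under sorafenib (3.67 ± 0.49), but with a difference of 2.06 ± 0.71 the arms were not separated (adjusted p = 0.168). FXYD2, a subunit of the kidney sodium pump, fell in both arms (-1.14 under sorafenib and -2.13 under sunitinib) and differed by 0.99 ± 0.51. IL6 rose under sorafenib (1.20 ± 0.27) and differed by 1.28 ± 0.40, adjusted p = 0.116. CXCL8 (0.56 ± 0.49) and the receptor kinases MET (0.10 ± 0.15) and AXL (0.46 ± 0.25) were not called either. None of these results shows that the arms were alike.

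In the other gene lists 0 members were called. These covered matrix proteases and plasminogen activators (15 tested, median 0.21), receptor kinases (11, -0.042), cytokines and chemokines (15, 0.22), interferon-stimulated genes (40, 0.17) and MHC class I presentation (15, 0.13). They further covered HIF targets (22, 0.067), stress and unfolded protein response genes (26, -0.016), cell cycle genes (29, -0.0044), p53 targets (13, -0.18) and cadherin, keratin and mesenchymal genes (16, -0.11). Among kidney and metabolic lists the medians were -0.29 for proximal tubule transport (19), -0.24 for tubule metabolism (23), -0.53 for aldo-keto reductases and glucuronosyltransferases (11) and 0.13 for retinoid metabolism (12). They were -0.32 for Notch (13), -0.26 for BMP and TGF-beta targets (18), -0.23 for the respiratory chain (23) and -0.28 for ribosomal proteins (16). All 16 ribosomal and 21 of 23 respiratory genes were negative, while 6263 of all 13808 genes tested were positive. The ribosomal median was -0.0032 after quantile normalisation, which put it next to the median of all genes. At an unadjusted limma p under 0.05, against 6.41% of all genes higher and 7.98% lower, 3 of 40 interferon-stimulated genes were higher and 0 lower. At the same p 4 of 15 proteases were higher and 1 lower, and 4 of 11 receptor kinases, 4 of 11 aldo-keto reductases and glucuronosyltransferases, 4 of 13 Notch genes and 5 of 23 respiratory chain genes were lower and 0 higher.

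**Figure D5:**
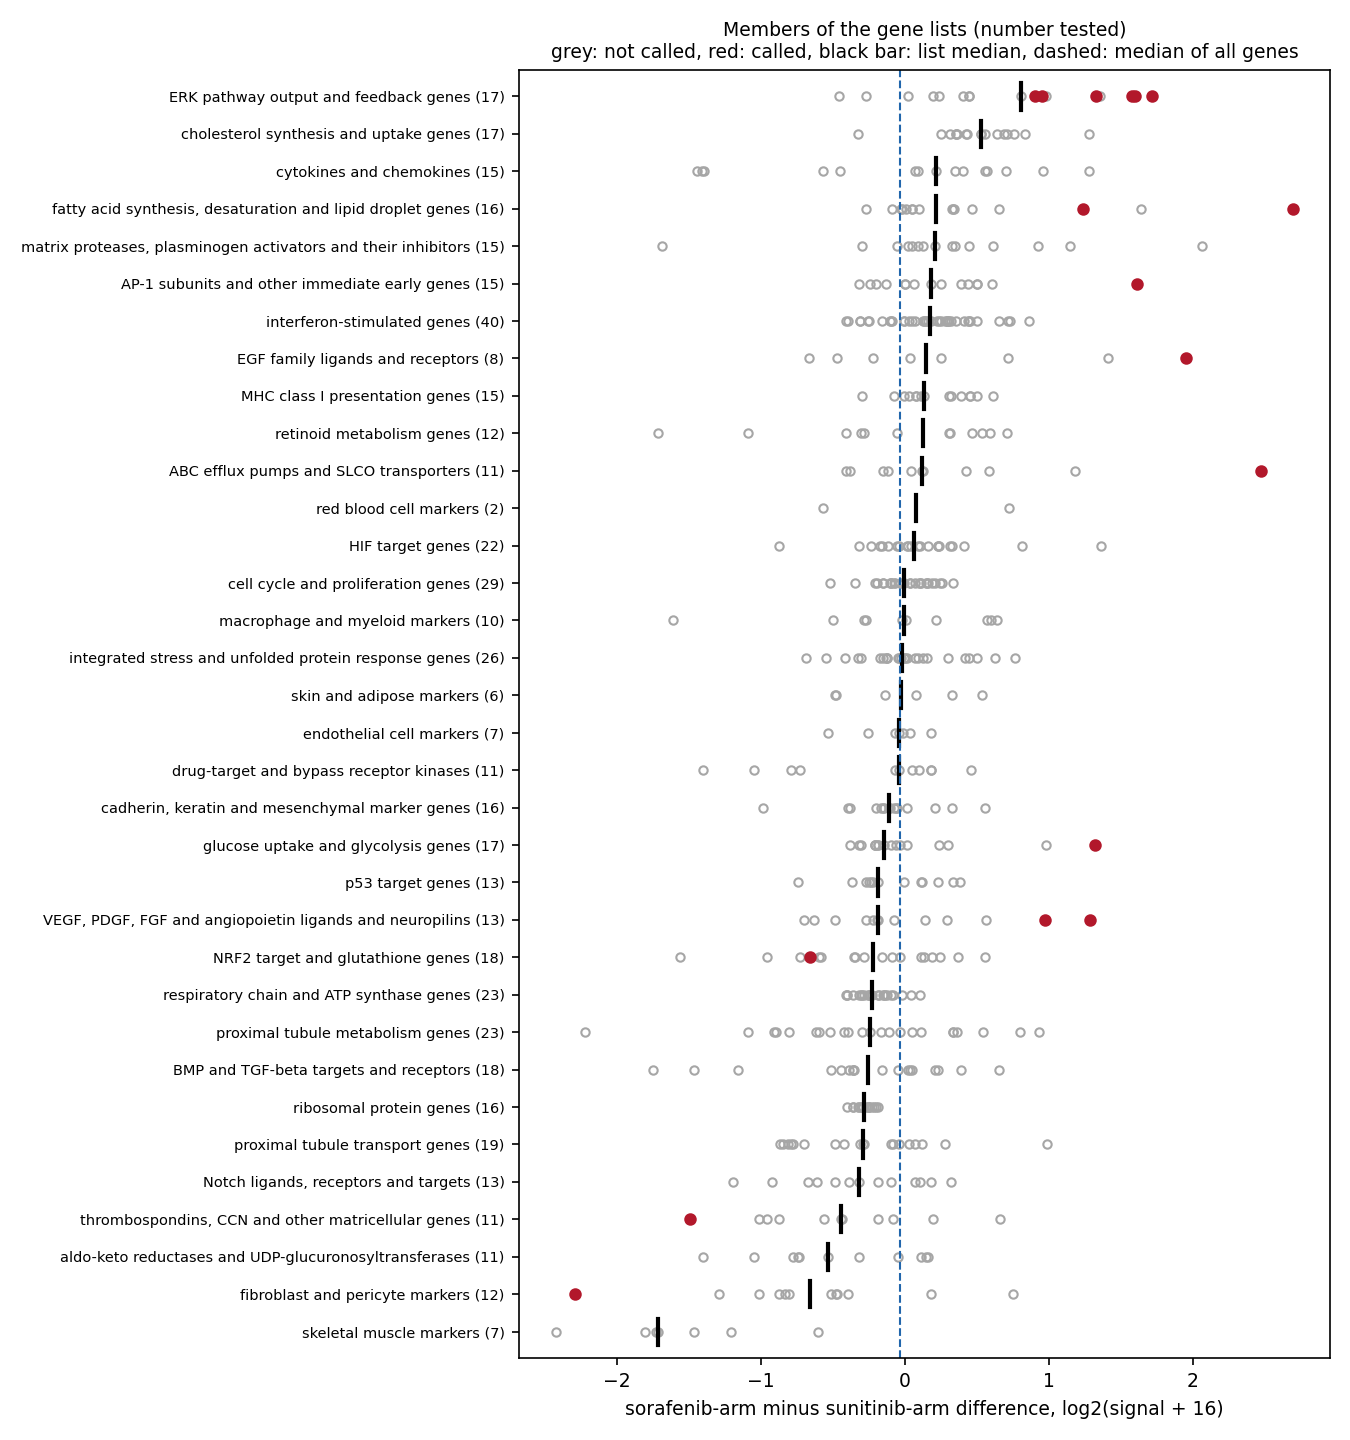
Difference between the arms (sorafenib minus sunitinib, log2(signal + 16)) of each tested member of the 34 gene lists: grey circles were not called, red points were called at an adjusted p under 0.05, black bars are list medians and the dashed line is the median of all genes, -0.035. The ERK list at the top, with a median of 0.81, holds 6 red points, and the muscle list at the bottom, with a median of -1.71, holds none.

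The difference between the drugs was taken from 786-O group means, while the A498 tumours shared the estimate of spread and counted toward the filter on low signals. Of the 131 genes 4 exceeded the filter level in no 786-O tumour and were tested through A498 alone, PKP2 and ZNF501 among them. In their sorafenib arm 875 genes were called (6.34%), 405 higher (2.93%) and 470 lower (3.4%). Of the 61 genes higher in 786-O under sorafenib relative to sunitinib, 15 were also called higher in sorafenib-resistant against untreated A498 tumours (24.6%) and 0 lower. Of the 70 lower genes, 11 were called lower (15.7%) and 0 higher. With the estimate of spread shared, these overlaps are not between independent calls. Of the 17 ERK output genes 6 were called higher in A498 and 0 lower, with a median of 0.44. DUSP6 signals were 602, 1004, 622, 585 and 767 in sorafenib-resistant A498 tumours, against 439.9, 389, 476 and 535 in untreated ones, a difference of 0.60 ± 0.17 (limma adjusted p = 0.0377). ETV5 rose by 1.38 ± 0.16, HMGA2 by 1.39 ± 0.23 and SLCO4A1 by 1.15 ± 0.25, and THBS1 fell by 1.17 on the log2 scale. MFSD2A (-0.79 ± 0.39), NRP2 (-0.11 ± 0.16) and MYL9 (-0.022 ± 0.20) were not called in A498. No sunitinib arm of A498 was analysed here, and whether the lines differ was not tested.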

How the data were processed

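RNA of 28 xenograft tumours had been measured on 1-colour human arrays. The deposited table holds 1 intensity per probe set and array on a linear scale, and per the submitters' processing notes RMA and MAS5 were used, with no version or role given. Of 54675 probe sets, 62 were controls, 41091 had 1 gene symbol, 1801 several and 11721 none. For each of 19775 genes the probe set with the highest mean log2(signal + 16) was taken, and 13808 genes whose signal exceeded 89.4, the overall median, on 4 or more arrays were tested. Group means of all 6 groups were modelled together in limma 3.58.1 (R 4.3.3), without covariates, so that every comparison draws on 1 estimate of spread, and p-values were adjusted by Benjamini and Hochberg at a threshold of 0.05. The number of arrays limits the precision. Named genes are the 15 largest called differences in each direction, passing over uncharacterised loci (3 among the lower), up to 3 called members of each of 34 gene lists and 12 fixed genes, 49 in all. A further 14 were chosen after their values were seen, as the text says. Members and lists were chosen with earlier results of these data known, and lists are described by counts and medians. On simulated data the difference between the arms recovered 58% of 100 genes shifted by 1 on the log2 scale and 92% of 100 shifted by 2, with 8 false calls of 13808. Alternatives covered the pseudocount, filter, probe set choice, scaling, weights, RNA quality, array sets and leaving out each array, and the muscle and fibroblast covariates were added after seeing the data. Promoters are those of RefSeq, build GRCh38.p14, and the ETS and cyclic AMP response motifs were added after seeing the data. Figures were drawn with matplotlib 3.10.9.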

Additional observations from a re-analysis of the deposited data

Results flagged for a closer look

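One tumour stood far from the rest of its group in 16 of 288 groups examined (5.56%). How often chance alone gives such a flag in groups of this size was not tested. Highest and lowest below refer to the tumours of that group alone, and other groups can hold more extreme values. On the log2(signal + 16) scale, HMGA1 (8.28) was highest in sunitinib-resistant tumour 2. KCNJ15 (10.74) was highest in untreated tumour 3 of the sorafenib arm. GPAT3 (6.73) was lowest in untreated tumour 5 of the sunitinib arm. G0S2 (10.26) and MAFF (9.42) were lowest in sunitinib-resistant tumour 1. TRPM8 (10.38) and ZPLD1 (7.77) were highest in untreated tumour 3 of the sunitinib arm. SPTB (5.83) was lowest in untreated tumour 2 of the sorafenib arm. NRP1 (11.79) was highest in untreated tumour 4 of the sunitinib arm. AXL (11.85) was highest in untreated tumour 1 of the sunitinib arm. ETV5 (9.71) was lowest in sorafenib-resistant tumour 3. TMEM158 (7.60) was lowest in untreated tumour 1 of the sorafenib arm. CNN3 (13.35) was highest in untreated tumour 4 of the sorafenib arm. The ACTB 3-prime minus 5-prime difference was the highest of its group in untreated tumour 5 of the sorafenib arm (1.03) and the lowest of its group in sunitinib-resistant tumour 3 (0.131). The summed macrophage markers were highest in sorafenib-resistant tumour 4 (2309).

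The change from untreated differed between the sorafenib and the sunitinib arm in 131 genes, by limma at an adjusted p under 0.05. Of the 53 named among them, higher under sorafenib by log2 differences were MFSD2A (2.70), SLCO4A1 (2.48), CIDEB (2.26), A4GALT (2.24), HMGA1 (2.17), KCNJ15 (2.13), GPAT3 (2.06), EREG (1.95), ZNF501 (1.94), HMGA2 (1.84), EFCAB13-DT (1.82), G0S2 (1.82), BLACAT1 (1.78), TRPM8 (1.76) and DUSP6 (1.72). Smaller positive differences were those of MAFF (1.61), PHLDA1 (1.60), SPRY2 (1.58), NT5E (1.56), TMEM158 (1.43), DUSP5 (1.33), SLC2A3 (1.32), LRP8 (1.30), NRP2 (1.28), LPIN1 (1.24), RPS6KA5 (1.16), NRP1 (0.97), ETV5 (0.96) and SPRED2 (0.90). Lower under sorafenib were WFDC21P (-3.10), SPTB (-2.42), TSPAN2 (-2.40), COL1A1 (-2.29), MAP1LC3C (-2.01), SETBP1 (-1.92), MAGEH1 (-1.84), ZPLD1 (-1.79), NTN4 (-1.74), FAM86B3P (-1.73), GASK1B (-1.72), TNFAIP6 (-1.70), PRR16 (-1.63), PKP2 (-1.62) and CCDC80 (-1.61). Smaller negative differences were those of MYL9 (-1.60), THBS1 (-1.49), NEXN (-1.39), SDC2 (-1.14), AJUBA (-1.07), TPM4 (-1.04), ENAH (-0.95), NQO1 (-0.66) and CNN3 (-0.58). Drug and title prefix cannot be told apart in any of them.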

How the results depend on the processing

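Of the 131 genes that separated the drugs, every one tested kept its direction under each alternative fitted on the same probe sets, 98 at the 75th percentile filter and all 131 otherwise. With the mean of probe sets 122 of 123 kept it, and without cross-hybridising probe sets 105 of 107. The 131 had been selected for their differences on these same tumours, so a kept direction is a description and no further evidence. The count of called genes did not hold as well. It was 73 with no filter on dim genes, 51 without the 2 arrays of highest ACTB difference (47 of them among the 131), 29 with the muscle covariate, 37 with the fibroblast covariate and 926 when the untreated tumours of both arms were pooled, which amounts to setting the resistant groups against each other. At least 1 on the log2 scale was reached by 77. Leaving out 1 array gave 64 to 171 genes, and the count fell by more than 1.5 times without untreated tumour 2 (79) or 4 (74) of the sorafenib arm, sorafenib-resistant tumour 4 (79) or 5 (67), untreated tumour 5 of the sunitinib arm (69) or sunitinib-resistant tumour 1 (65) or 4 (64). In all, 43 of the 131 calls were kept in each of the 19 fits, and the highest adjusted p of any of the 131 was 0.12. Of the 53 called genes named here, 30 kept the call without the 2 arrays of highest ACTB difference. Why the counts moved was not tested. No paired analysis was possible because replicate numbers follow only the order of deposition. Intensities carry no depth, and genes below the filter level could not be compared.

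Called genes in the sorafenib arm were 1233 without the 2 arrays of highest ACTB difference, 1234 with the muscle and 921 with the fibroblast covariate, and 1579 to 2097 without 1 array. In the sunitinib arm they were 313 to 732 without 1 array. Between untreated groups they were 25 with a pseudocount of 1, 20 with no filter, 17 at the 75th percentile, 18 without cross-hybridising probe sets, 91 with array weights, 24 with ACTB as a covariate, 2 in 786-O alone, 24 without the 2 ACTB arrays, 7 with the muscle and 7 with the fibroblast covariate, and 14 to 50 without 1 array. Between resistant groups they were 614 with no filter, 540 without the 2 ACTB arrays, 467 with the muscle covariate and 457 to 1023 without 1 array. In A498 they were 1316 with array weights and 802 to 910 without 1 array. Among genes that were not called, 3 changed sign. VEGFA was 0.23 with the mean of probe sets and 0.12 after quantile normalisation, MKI67 0.13 and MET -0.035 with the mean of probe sets. The RNA quality differences without 1 array were -0.019 to 0.085 for GAPDH and -0.074 to 0.13 for ACTB.

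With the mean of probe sets the list medians were 0.48 for ERK output, -0.15 for the EGF family, 0.19 for angiogenic factors, -0.029 for Notch and -0.14 for the respiratory chain. Without cross-hybridising probe sets they were 1.16 for ERK output, 0.67 for the EGF family, 0.38 for MHC class I, 0.24 for glycolysis, 0.39 for fatty acids, 0.14 for the stress response, 0.28 for macrophage, -0.48 for skin and adipose and -0.57 for red cell markers. At the 75th percentile filter, where no endothelial marker was left, they were 0.036 for angiogenic factors, -0.12 for transporters, -0.14 for Notch, 0.29 for macrophage, -2.42 for muscle and 0.73 for red cell markers. With no filter they were -0.27 for macrophage and -0.85 for muscle markers, and with a pseudocount of 64 -1.21 for muscle. Without the 2 ACTB arrays they were -0.10 for immediate early genes, 0.29 for transporters and -0.13 for the respiratory chain. After quantile normalisation they were -0.12 for the respiratory chain and -0.0032 for ribosomal proteins. With the muscle covariate they were -0.045 for NRF2, -0.46 for retinoids, -0.12 for the respiratory chain, 0.27 for macrophage and -0.0085 for muscle markers, and with the fibroblast covariate -0.23 for fibroblast markers. The muscle and fibroblast markers were there adjusted for their own mean.

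Without 1 array the medians ran over 0.72 to 0.90 for ERK output, -0.013 to 0.30 for immediate early genes, 0.15 to 0.35 for proteases, 0.0022 to 0.29 for EGF family, -0.13 to 0.067 for receptor kinases, -0.19 to -0.04 for angiogenic factors, 0.12 to 0.31 for cytokines, 0.092 to 0.27 for interferon-stimulated genes, 0.10 to 0.23 for MHC class I, 0.0013 to 0.13 for HIF targets, -0.20 to -0.066 for glycolysis and 0.38 to 0.60 for cholesterol. They ran over 0.13 to 0.26 for fatty acids, -0.057 to 0.0096 for stress response, -0.28 to -0.12 for NRF2, -0.77 to -0.29 for aldo-keto reductases and glucuronosyltransferases, -0.36 to -0.15 for tubule transport, -0.37 to -0.13 for tubule metabolism, -0.036 to 0.24 for retinoids, -0.043 to 0.31 for efflux and SLCO transporters, -0.45 to -0.18 for Notch, -0.27 to -0.11 for BMP and TGF-beta, -0.62 to -0.29 for matricellular genes and -0.18 to -0.038 for mesenchymal and epithelial genes, and over -0.06 to 0.082 for cell cycle, -0.24 to -0.014 for p53, -0.26 to -0.13 for respiratory chain, -0.41 to -0.17 for ribosomal proteins, -0.82 to -0.52 for fibroblast markers, -0.17 to 0.057 for endothelial markers, -0.11 to 0.13 for macrophage markers, -1.93 to -1.47 for muscle markers, -0.10 to 0.039 for skin and adipose markers and -0.26 to 0.29 for red cell markers.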
